A study of Mus musculus with 6 samples.

Results

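A set of 10 genes of the macrophage, the phagocyte that lives in every tissue, was followed in mouse skeletal muscle: Cd68, Csf1r, Adgre1, Itgam, Lyz2, Ccr2, Cybb, Cd163, Mrc1 and Lyve1. They were chosen by name as the rows of the count table with these symbols, 10 of 47967 rows, and all 10 passed the filter on low counts and stood among the 15347 genes tested. The RNA came from gastrocnemius, a muscle of the calf, taken from C57BL/6 males aged 20 to 24 weeks. One group ate a normal phosphate diet with 0.6% inorganic and 0.9% total phosphate, and the other a high phosphate diet with 2.0% inorganic and 2.3% total phosphate, each for 12 weeks and with 3 libraries. Calcium (1.9%), potassium (1.8%), sodium (0.9%) and magnesium (0.3%) were the same in both diets. The labels do not say that each library is a separate mouse, so p-values measure the spread between these libraries, which may be technical.

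Macrophages of adult tissues come from more than one source. Some settle early, renew themselves in place and often carry the scavenger receptors CD163 and CD206 and the hyaluronan receptor LYVE-1; others arise from blood monocytes, which enter tissue through the chemokine receptor CCR2 and carry lysozyme and the oxidase of the respiratory burst. The genes are markers of these states and not exclusive to them: Lyve1 and Mrc1 are also expressed by lymphatic endothelium, and Lyz2 and Cybb by neutrophils. In whole muscle, fewer cells of a type and less RNA per cell cannot be told apart. Levels are CPM, the count of a gene as a share of all counts of its library after TMM normalization, which sets a typical gene equal between libraries. Means are given ± SD over n = 3 libraries, and a log2 fold change (± SE) is positive where the high phosphate diet was higher. Calls required a Benjamini-Hochberg adjusted p below 0.05 in edgeR's quasi-likelihood test over all genes tested.

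Of the 10 genes, 8 fell on the high phosphate diet, Cd163 was called higher by a narrow margin and Lyve1 was not called. The falls ran from 2.21-fold in Itgam to 4.72-fold in Cybb. The background was wide: 26.3% of all genes tested were called lower and 23.0% higher (49.3% in either direction), and in 32.1% all high phosphate libraries lay below all normal phosphate libraries, as they did in the same 8 members. The median log2 fold change of the members was -1.55, against -0.016 over all genes tested. Of all genes tested, 2.33% had a lower log2 fold change than Cybb, 11.5% than Itgam, 47.1% than Lyve1 and 86.1% than Cd163. At a fall of at least 2-fold, the background was 13.5% and the count of members was again 8. The 3 genes set on the resident side therefore did not share a call. Mrc1 was called lower, as were the 3 monocyte-side genes. Cd163 and Lyve1 were not called lower, and a difference of Lyve1 from Mrc1 was not tested.

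**Figure D1:**
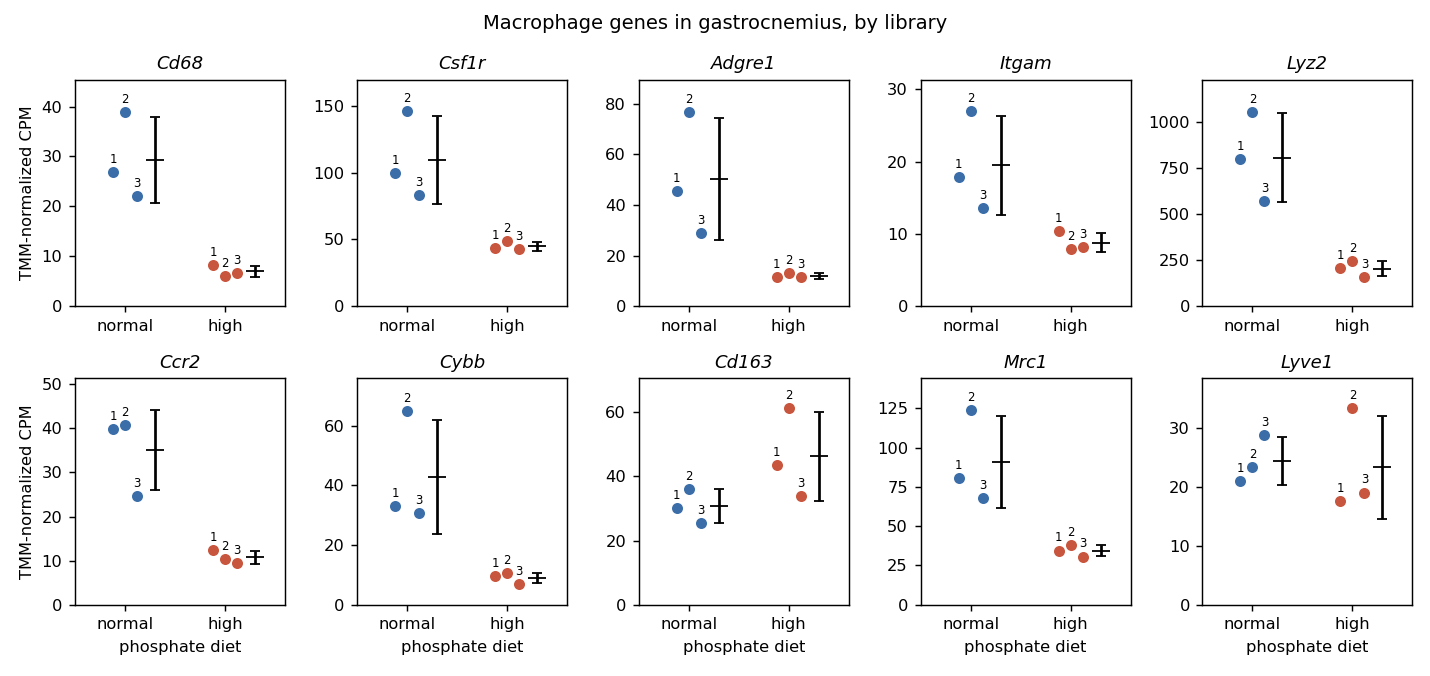
TMM-normalized CPM of each gene in the 3 normal phosphate libraries (blue) and the 3 high phosphate libraries (red), with replicate numbers beside the points and mean ± SD as black bars; each panel has its own axis from 0. In 8 panels all high phosphate points lie below all normal phosphate points, while for Cd163 and Lyve1 the diets overlap.

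The labelled tissue carried its markers. The summed level of 6 muscle fibre genes was 49613 to 71541 CPM on the normal and 143372 to 181217 CPM on the high phosphate diet. Of these 6 genes, 5 were called higher, at a median log2 fold change of 1.14, beside 23.0% of all genes tested. The total count per library was 21856006 to 27474251, and 1 CPM stood for 19.3 to 28.3 counts. Normal phosphate replicate 2 stood apart on the first principal component, at -75.4 against -36.5 and -43.8 for the rest of its diet, and 9 of the 10 members had their highest normal phosphate level in it. The lowest normal phosphate level of 9 members was in replicate 3. The fold changes of named genes, the counts of the 7 lists around the members and the ratios were also computed without each library.

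Among the genes that define macrophages in general, Cd68 showed a clear separation of the diets. It encodes a lysosomal glycoprotein of phagocytes (ENSMUSG00000018774, GRCm38 chromosome 11, 69664213 to 69666153). Its level was 26.9, 38.9 and 22.1 CPM in normal phosphate replicates 1, 2 and 3 and 8.28, 6.06 and 6.59 CPM in the high phosphate replicates. The lowest normal phosphate library was above the highest high phosphate library, and the log2 fold change was -2.07 ± 0.22 (edgeR adjusted p = 0.000451), a 4.19-fold fall.

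Adgre1 encodes F4/80, an adhesion-class receptor used to identify mouse macrophages (ENSMUSG00000004730, chromosome 17, 57358691 to 57483527). It stood at 45.5, 76.7 and 29.1 CPM on the normal and 11.4, 13.2 and 11.4 CPM on the high phosphate diet. The normal phosphate libraries were spread by 2.63-fold between their lowest and highest, the high phosphate libraries by 1.17-fold. The diets did not overlap, and the log2 fold change was -2.07 ± 0.33 (edgeR adjusted p = 0.00254), or -1.64 without normal phosphate replicate 2.

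Csf1r, the receptor through which CSF1 and IL-34 keep macrophages alive (ENSMUSG00000024621), fell less. Its levels were 99.7, 146 and 82.9 CPM on the normal and 43.2, 48.5 and 42.7 CPM on the high phosphate diet. The high phosphate libraries lay close together, and the log2 fold change was -1.29 ± 0.19 (edgeR adjusted p = 0.00128). Of the exonic bases of Csf1r, 15.1% are also annotated to Hmgxb3 on the opposite strand. Without a stated strand setting, reads of the pair there cannot be told apart.

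The Itgam row, named for the integrin chain CD11b of phagocytes, fell least of the 8. It stood at 17.8, 27.002 and 13.6 CPM on the normal and 10.3, 7.94 and 8.14 CPM on the high phosphate diet, without overlap (-1.14 ± 0.24, edgeR adjusted p = 0.00556), and at -0.83 without normal phosphate replicate 2. The identifier of this row, ENSMUSG00000108596, is named Gm49368 in GENCODE M21, a gene that starts within the Itgam locus and runs on beyond its end (chromosome 7, 128062683 to 128128160). It shares 79.1% of its exonic bases with Itgam and Gm45700 on the same strand and covers 68.7% of the exonic bases of ENSMUSG00000030786, the Itgam entry of that annotation. The value is therefore an uncertain measure of Itgam.

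On the monocyte side, Ccr2, the receptor by which monocytes leave the bone marrow and enter tissue, fell (ENSMUSG00000049103, chromosome 9, 124101950 to 124113557). It stood at 39.8, 40.7 and 24.7 CPM on the normal and 12.3, 10.3 and 9.54 CPM on the high phosphate diet. Normal phosphate replicate 3 was the lowest of its diet and still above the highest high phosphate library. The log2 fold change was -1.71 ± 0.20 (edgeR adjusted p = 0.000589).

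Lyz2, the lysozyme of macrophages and neutrophils (ENSMUSG00000069516, chromosome 10, 117277331 to 117282321), was the most abundant member. Its levels were 799.5, 1055 and 571 CPM on the normal and 206, 245 and 160.5 CPM on the high phosphate diet, a 3.96-fold fall (-1.99 ± 0.25, edgeR adjusted p = 0.000678). All high phosphate libraries were below all normal phosphate libraries. Of the 50-base stretches of Lyz2 transcripts, 15.4% also occur in transcripts of its neighbour and paralog Lyz1, so reads could be split between them. Lyz1 fell as well, from 27.1 ± 6.52 to 11.7 ± 2.91 CPM (-1.21 ± 0.22, edgeR adjusted p = 0.00266). With the counts of Lyz1 and Lyz2 summed, the log2 fold change was -1.95.

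Cybb encodes the catalytic subunit of the phagocyte NADPH oxidase, gp91phox (ENSMUSG00000015340, chromosome X, 9435252 to 9487771), and fell most among the members. It stood at 33.0, 64.8 and 30.6 CPM on the normal and 9.57, 10.5 and 7.11 CPM on the high phosphate diet, without overlap (-2.24 ± 0.32, edgeR adjusted p = 0.00148). Without normal phosphate replicate 2, which held the high value, the log2 fold change was -1.81.

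On the resident side, Mrc1, which encodes the mannose receptor CD206, fell (ENSMUSG00000026712, chromosome 2, 14229392 to 14332057). Its levels were 80.5, 124 and 67.8 CPM on the normal and 34.5, 38.2 and 30.7 CPM on the high phosphate diet. The diets did not overlap, and the log2 fold change was -1.40 ± 0.21 (edgeR adjusted p = 0.00153). Without normal phosphate replicate 2 it was -1.11.

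Cd163, the scavenger receptor for haemoglobin bound to haptoglobin (ENSMUSG00000008845, chromosome 6, 124304656 to 124330527), did not fall with them. It stood at 30.2, 36.1 and 25.6 CPM on the normal and 43.6, 61.1 and 33.9 CPM on the high phosphate diet. High phosphate replicates 1 and 2 were above every normal phosphate library, and replicate 3 was below normal phosphate replicate 2. The log2 fold change was 0.59 ± 0.22 (edgeR adjusted p = 0.0494), a call close to the threshold. The call was kept in 6 of 18 alternative fits, among them DESeq2 (0.63, adjusted p = 0.0189), and the adjusted p over the 18 ran from 0.00575 to 0.810. Of the 6 fits that left out 1 library, the call held in that without high phosphate replicate 3 (0.79, edgeR adjusted p = 0.0146), and the other 5 gave 0.35 to 0.73. With library size alone the log2 fold change was 0.11 (edgeR adjusted p = 0.714). The deposited FPKM values, as log2(FPKM + 1), gave 0.089 (limma adjusted p = 0.768). An increase of Cd163 is therefore one relative to a typical gene, and its size depends on the scaling.

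Lyve1, the hyaluronan receptor (ENSMUSG00000030787, chromosome 7, 110850607 to 110863239), stood at 21.0, 23.4 and 28.8 CPM on the normal and 17.5, 33.3 and 19.0 CPM on the high phosphate diet. High phosphate replicate 2 was the highest library of all 6 and the other two were the lowest, so the diets overlapped. The log2 fold change was -0.067 ± 0.24 (edgeR adjusted p = 0.836), and it was called in 0 of 18 alternative fits, at -0.62 to 0.11. With library size alone it was -0.53 (edgeR adjusted p = 0.112). High phosphate replicate 2 also held the highest level of Cd163, and 7 of the 10 members had their highest high phosphate level in it. Without it, Lyve1 stood at -0.40 (edgeR adjusted p = 0.0728) and Cd163 at 0.35 (edgeR adjusted p = 0.134).

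**Figure D2:**
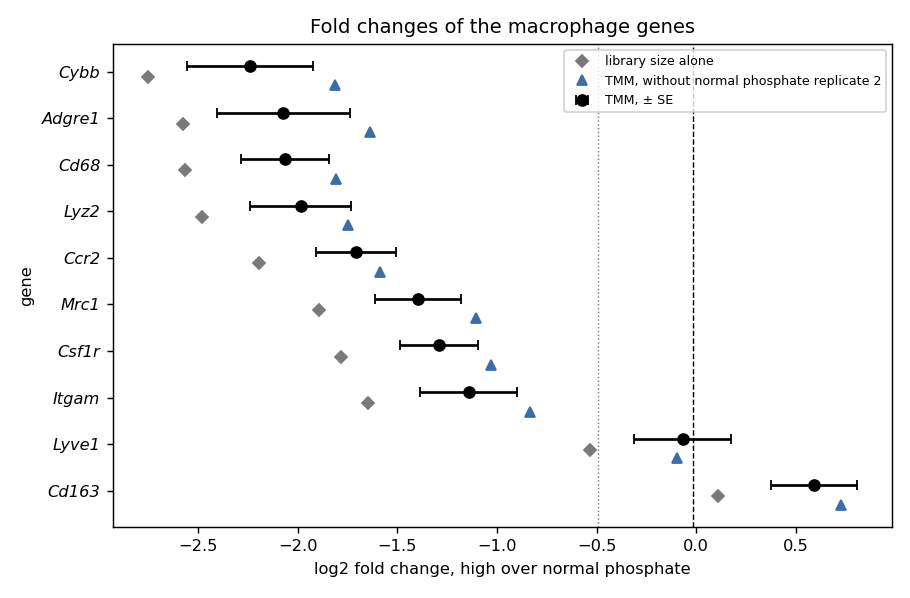
Log2 fold change, high over normal phosphate, of each gene with TMM scaling ± SE (black circles), with scaling by library size alone (grey diamonds) and without normal phosphate replicate 2 (blue triangles). The dashed and dotted vertical lines mark the median over all genes with TMM (-0.016) and with library size alone (-0.49). The 8 lower genes stay left of both lines, Lyve1 lies near the median under each scaling, and Cd163 lies right of it.

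Cd163 and Mrc1 are both scavenger-type receptors on the resident side and moved differently. The 250 bases before the RefSeq start of each are printed, from GRCm38.p6, 5′ to 3′ on the strand of the gene. Capitals mark matches to GAGGAA, the purine-rich sequence that the macrophage factor PU.1 binds, on either strand (TTCCTC on the other). The 2 windows lie at chr6:124304401-124304650 and chr2:14229164-14229413, both on the plus strand, and the last 22 bases of the Mrc1 window lie within the Mrc1 gene of GENCODE M21.
Cd163: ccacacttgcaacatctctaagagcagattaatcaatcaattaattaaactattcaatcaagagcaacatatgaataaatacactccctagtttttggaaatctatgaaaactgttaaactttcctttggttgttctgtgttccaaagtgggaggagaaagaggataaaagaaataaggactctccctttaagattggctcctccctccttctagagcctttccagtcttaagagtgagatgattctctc
Mrc1: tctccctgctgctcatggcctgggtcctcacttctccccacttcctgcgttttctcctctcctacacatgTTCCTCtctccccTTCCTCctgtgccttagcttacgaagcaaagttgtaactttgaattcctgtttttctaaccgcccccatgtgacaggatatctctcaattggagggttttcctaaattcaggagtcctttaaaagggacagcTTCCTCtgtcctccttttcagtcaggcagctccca
The Mrc1 window held 3 matches, all as TTCCTC, and the Cd163 window held 0. Windows were at hand for 7 of the 10 members, and 3 of these 7 (Cd68, Itgam and Mrc1) held GAGGAA on either strand, against 23.3% of 32851 windows of the same length. Of the 250 bases, 233 of the Ccr2 window and all 250 of the Cybb window lie within the annotated gene. The core of the site of MAF factors, TGCTGA on either strand, was in 1 of the 7 (Lyz2) and in 16.1% of all windows, and the letters of these motifs do not overlap in any member window. The windows of Ccr2, Lyz2 and Cybb, genes that also fell, held 0 matches to GAGGAA. A match of letters is a description and shows no binding, and its part in any change was not tested.

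The question of resident against monocyte-side genes was put within each library, since a ratio of genes in one library does not depend on the scaling between libraries. The mean log2 CPM of Cd163, Mrc1 and Lyve1 minus that of Ccr2, Lyz2 and Cybb was -1.45, -1.58 and -1.04 in normal phosphate replicates 1, 2 and 3. It was 0.036, 0.51 and 0.28 in the high phosphate replicates. All high phosphate libraries were above all normal phosphate libraries. The difference between the diets was 1.63 on the log2 scale, a 3.10-fold higher ratio of resident-side to monocyte-side genes. The same difference against Ccr2, Lyz2 and Cybb had a median of 1.91 over all genes tested, and 89.3% of them were higher in every high phosphate library, so the 1.63 of the resident-side mean lay below that of a typical gene. The mean of the monocyte side changed by -1.93, more than the whole of the 1.63. That of the resident side changed by -0.30, also downward, with overlapping libraries, which made the difference smaller. Leaving out each library in turn gave 1.51 to 1.79, and log2(FPKM + 0.1) gave 1.61.

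The 9 pairs of a resident-side and a monocyte-side gene were then compared one by one. In 8 of 9 pairs the log2 ratio was higher in every high phosphate library than in every normal phosphate library. Since the partners fell, this is what most genes did: of all genes tested, the ratio to Ccr2 was higher in every high phosphate library in 83.6%, that to Lyz2 in 89.1% and that to Cybb in 92.1%, against 30.3% for the level itself. The median diet difference over all genes tested was 1.65, 1.94 and 2.14 for these ratios. Each of the 8 pairs had a two-sided exact permutation p = 0.10, the smallest that 3 against 3 libraries allow, and an adjusted p of 0.113 over the 9 pairs, so no pair could pass a threshold of 0.05. The diet differences were 2.24, 2.53 and 2.73 for Cd163 over Ccr2, Lyz2 and Cybb. They were 1.56, 1.85 and 2.05 for Lyve1 over the same 3 genes, and 0.32, 0.61 and 0.81 for Mrc1. Mrc1 over Ccr2 was the pair whose diets overlapped (two-sided exact permutation p = 0.20). The Lyve1 ratios thus lay near these medians, the Cd163 ratios above and the Mrc1 ratios below them. The Cd163 ratios shifted most and the Mrc1 ratios least, an order that the changes of the 3 genes fix against any partner.

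**Figure D3:**
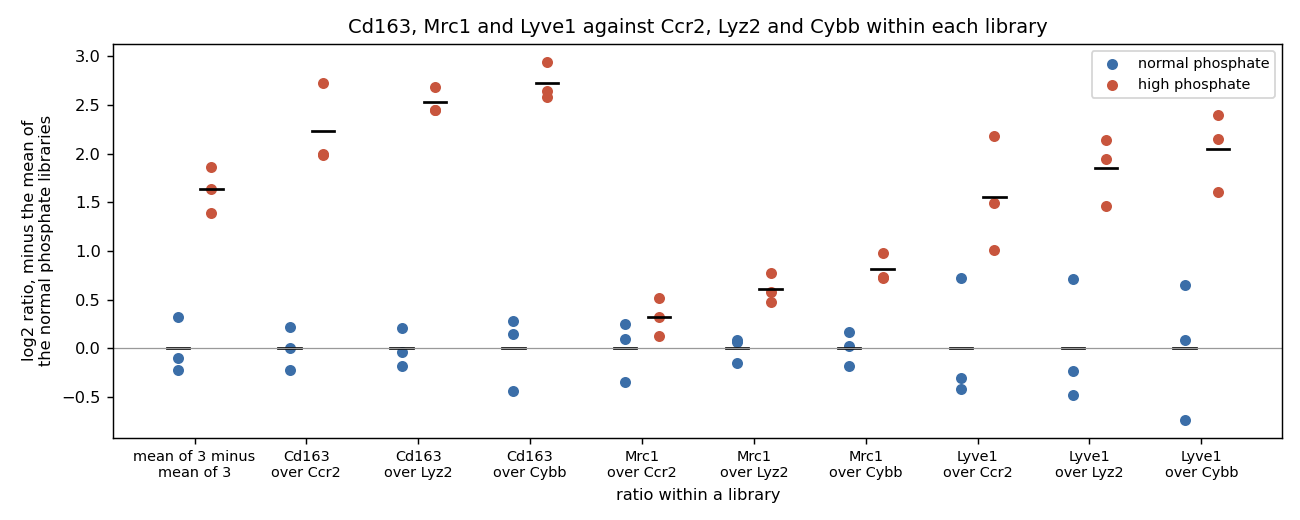
Log2 ratio within each library of the mean of Cd163, Mrc1 and Lyve1 to the mean of Ccr2, Lyz2 and Cybb (left) and of the 9 single pairs, each drawn relative to the mean of its normal phosphate libraries; points are libraries and black lines are means of 3. The Cd163 ratios rise by 2.24 to 2.73 and the Mrc1 ratios by 0.32 to 0.81, and Mrc1 over Ccr2 alone shows overlapping diets.

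Relative to macrophage genes at large the members fell into separate groups. The yardstick was the mean log2 CPM of 18 other genes of macrophages and related leukocytes, which itself changed by -1.80. Against it the median of all genes tested gained 1.78, and 87.0% of them were higher in every high phosphate library. Cd163 gained 2.37 and Lyve1 1.69, with no overlap of the diets, so Lyve1 moved near that median. Smaller gains without overlap were seen in Itgam (0.71), Csf1r (0.55) and Mrc1 (0.45). Ccr2 (0.13), Lyz2 (-0.16), Adgre1 (-0.15) and Cd68 (-0.23) had overlapping diets against the yardstick, and Cybb (-0.36) fell further, without overlap. Cd163 stood at -0.0012, -0.38 and 0.045 against it in the normal phosphate replicates and at 1.98, 2.60 and 2.19 in the high phosphate replicates. Mrc1 stood at 1.41, 1.39 and 1.45 above it on the normal phosphate diet, so its high value in replicate 2 came with a high value of the yardstick, and at 1.64, 1.92 and 2.04 on the high phosphate diet.

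Levels between genes were compared per kilobase of annotated exon. On the normal phosphate diet Lyz2 led with 614 ± 184 CPM per kilobase, far above Cd68 (23.3 ± 6.87), Csf1r (19.0 ± 5.67), Adgre1 (15.6 ± 7.47) and Mrc1 (14.2 ± 4.62). Lyve1 (8.36 ± 1.37), Cybb (7.37 ± 3.29), Cd163 (5.61 ± 0.963), Ccr2 (5.19 ± 1.33) and the Itgam row (4.06 ± 1.43) followed. The ranges of neighbours in this order overlapped, except those of Lyz2 and Cd68 and of Mrc1 and Lyve1. On the high phosphate diet Lyz2 still led with 155 ± 32.1 CPM per kilobase, and Cd163 stood in place 2 (8.46 ± 2.53) instead of place 8. Lyve1 (7.98 ± 2.99) and Csf1r (7.75 ± 0.555) came next, with ranges that overlapped that of Cd163, and then Cd68 (5.55 ± 0.926), Mrc1 (5.41 ± 0.586) and Adgre1 (3.70 ± 0.335). The Itgam row (1.83 ± 0.278), Ccr2 (1.59 ± 0.211) and Cybb (1.56 ± 0.301) were lowest, and their ranges overlapped. Besides Lyz2 and Cd163, the neighbours whose ranges did not overlap on this diet were Csf1r and Cd68, Mrc1 and Adgre1, and Adgre1 and the Itgam row.

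The genes around the members were read from lists. Of 15 further genes tied to resident macrophages, 8 fell, 3 rose and 4 were not called, with a median log2 fold change of -0.58. Beside the 26.3% of all genes called lower and the 23.0% called higher, 3 of 15 higher is no more than the background. The chemokine Pf4 went down from 36.9 ± 6.71 to 16.8 ± 0.965 CPM (-1.14 ± 0.14, edgeR adjusted p = 0.000615), the scavenger receptor Stab1 from 104 ± 28.1 to 45.5 ± 1.56 CPM, and Sepp1, the older symbol of the selenium carrier Selenop, from 823 ± 117 to 399 ± 63.0 CPM. The 3 that rose, named after their values were seen, were Cbr2, a carbonyl reductase, from 36.2 ± 6.31 to 73.1 ± 22.6 CPM (1.02 ± 0.22), the transcription factor Maf, from 137 ± 14.8 to 266 ± 82.3 CPM (0.95 ± 0.22), and the lectin Cd209d, from 3.04 ± 0.648 to 5.60 ± 1.32 CPM (0.88 ± 0.24). Their edgeR adjusted p values were 0.00673, 0.00774 and 0.0132. The part of other cells of whole muscle in these rises was not tested. Maf (0.47) and Cd209d (0.39) were not called with library size alone, and none of the 3 was called on the log2(FPKM + 1) scale (Cbr2 0.50, Maf 0.60, Cd209d 0.30). The 4 that were not called were Timd4 (-1.44), Cd209f (0.26), Fcna (-0.19) and Ccl24 (-0.35), and Timd4 ranged from 1.57 to 12.9 CPM within the normal phosphate diet.

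Of 16 further genes of monocytes and their progeny, 15 were tested, 10 fell, 1 rose and 4 were not called, and the median was -2.12. Over all genes tested, 26.3% were called lower and 23.0% higher. Cx3cr1, the fractalkine receptor, dropped from 7.14 ± 3.23 to 1.16 ± 0.176 CPM (-2.62 ± 0.34, edgeR adjusted p = 0.000715). The lipid-sensing receptor Trem2 fell from 11.7 ± 7.07 to 0.827 ± 0.281 CPM (-3.80 ± 0.49) and galectin-3, Lgals3, from 64.5 ± 20.9 to 16.9 ± 4.02 CPM (-1.93 ± 0.26). Trem2 was at 19.9 CPM in normal phosphate replicate 2, against 7.73 and 7.497 CPM in replicates 1 and 3. The gene that rose was Nr4a1, a transcription factor of patrolling monocytes that is also induced as an early response gene in other cells, from 68.1 ± 21.0 to 235 ± 81.5 CPM (1.79 ± 0.32). Spp1 (-0.79), Ace (-0.37), Ifitm6 (-1.05) and Fcgr4 (-1.73) were not called, and Chil3 did not pass the filter on low counts.

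All 18 genes of the broad macrophage list fell, without overlap of the diets, at a median of -1.71. In 32.1% of all genes tested, all high phosphate libraries likewise lay below all normal phosphate libraries. Cd53, a tetraspanin of leukocytes, went from 31.6 ± 10.4 to 7.95 ± 0.4002 CPM (-1.99 ± 0.22, edgeR adjusted p = 0.000494), the beta-glucan receptor Clec7a fell by 2.96 and Cd84 fell by 3.09 on the log2 scale. The smallest fall was that of Mertk, the receptor for dying cells (-0.50 ± 0.17, edgeR adjusted p = 0.0351), which was not called without normal phosphate replicate 2 (-0.28) or without high phosphate replicates 1 (-0.46), 2 (-0.52) or 3 (-0.48).

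**Figure D4:**
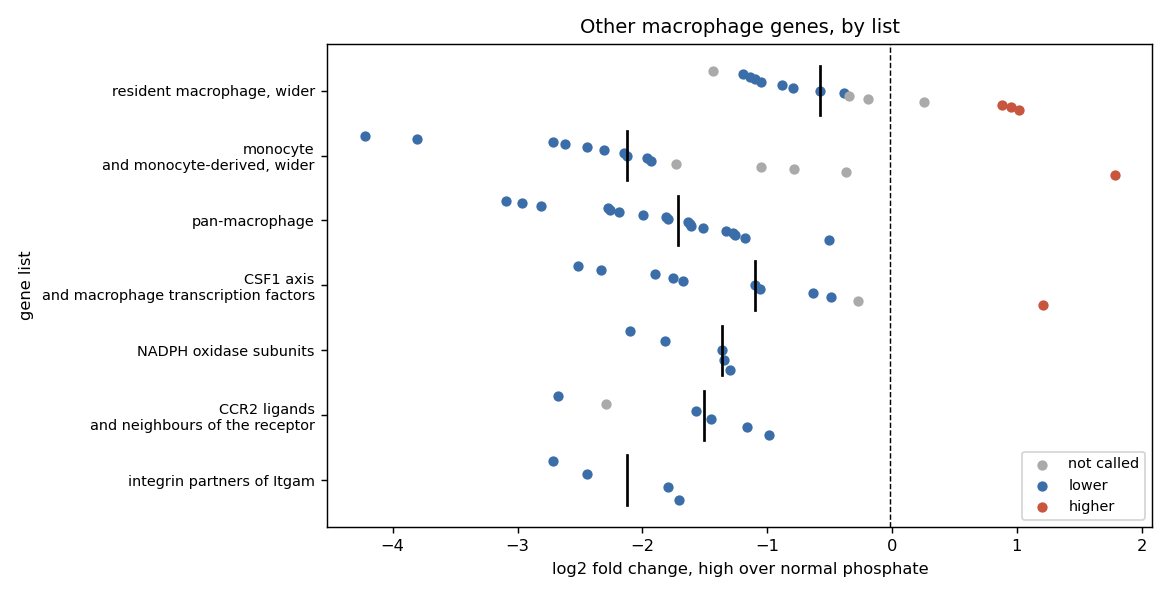
Log2 fold change, high over normal phosphate, of each tested gene in 7 lists around the members; blue points were called lower, red points higher and grey points not called, black ticks are list medians and the dashed line is the median of all genes tested. The resident list is centred at -0.58 with 3 red points, and the monocyte list at -2.12 with 1.

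The signals that sustain macrophages were lower too. Csf1, the ligand of Csf1r, fell from 32.2 ± 3.34 to 20.8 ± 2.45 CPM (-0.63 ± 0.13, edgeR adjusted p = 0.00348). In the list of this axis and of the transcription factors of the lineage, 9 of 11 fell and 1 rose, at a median of -1.09. The shares over all genes tested were 26.3% lower and 23.0% higher. Cebpa, a factor of myeloid precursors, went from 64.8 ± 11.7 to 12.9 ± 0.243 CPM (-2.33 ± 0.14, edgeR adjusted p = 5.84e-05). It is also a regulator of adipocytes, and the summed level of 6 white adipocyte markers was 1279 to 1907 CPM on the normal and 215 to 419 CPM on the high phosphate diet. The part of those cells in the fall was not tested. Spi1, which encodes PU.1, fell from 13.5 ± 3.14 to 3.60 ± 0.456 CPM (-1.90 ± 0.20), and Ikzf1, a factor of leukocytes in general, fell by 2.52 on the log2 scale. Cebpb rose from 10.01 ± 0.852 to 23.2 ± 7.74 CPM (1.21 ± 0.22) but was not called on the deposited log2(FPKM + 1) values (1.17, limma adjusted p = 0.0813).

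Genes linked to single members mostly fell too. All 5 other subunits of the NADPH oxidase fell with Cybb, at a median of -1.36, among them Cyba, the membrane partner p22phox, from 32.3 ± 6.11 to 12.7 ± 0.446 CPM (-1.35 ± 0.14), and the cytosolic subunit Ncf4 (-1.82 ± 0.29). Itgb2, the beta chain that pairs with CD11b, fell from 25.8 ± 8.57 to 7.42 ± 0.4997 CPM (-1.80 ± 0.22, edgeR adjusted p = 0.000662). It fell further than the Itgam row, and so did Itgal, another integrin alpha chain (-2.72 ± 0.39), and the integrin activator Fermt3 (-1.71 ± 0.24). Whether these falls differ was not tested. Of 6 genes of CCR2 ligands and related receptors, 5 were called lower, at a median of -1.51. Beside the counts of these lists, 26.3% of all genes tested were called lower. The ligand Ccl2 fell from 4.18 ± 1.54 to 1.41 ± 0.147 CPM (-1.57 ± 0.31). Ccl7 (-1.45 ± 0.49, edgeR adjusted p = 0.0360) overlapped between the diets and lost its call without any one library except normal phosphate replicate 3 (-1.06 to -1.64), and Ccl8 was not called (-2.29 ± 0.79, edgeR adjusted p = 0.0538). The count of 5 was 2 without normal phosphate replicates 1 or 2 or high phosphate replicates 2 or 3, and 3 without high phosphate replicate 1.

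Markers of other cells, some of which share these genes, were read in the same libraries. Ptprc, the CD45 gene of all leukocytes, fell from 53.8 ± 19.9 to 10.6 ± 1.30 CPM (-2.35 ± 0.26). The 6 B cell markers summed to 9.61 to 65.2 CPM on the normal and 1.01 to 1.83 CPM on the high phosphate diet, and the 7 T cell markers to 10.4 to 36.9 and 0.778 to 2.04 CPM, and all 13 fell. Of 8 neutrophil markers 2 fell, 2 were not called and 4 did not pass the filter, with Ly6g at 0 in every library, and their sum was 9.95 to 11.4 and 3.99 to 6.36 CPM. Of 8 dendritic cell markers 4 fell and 4 were not called, at a median log2 fold change of -1.08. Their sum was 29.6 to 39.9 and 29.1 to 29.9 CPM. Its largest part was Zbtb46, which was not called (15.9 ± 0.528 and 17.4 ± 1.23 CPM), so the sum says little of the other markers. Over all genes tested 26.3% were called lower, the share to set beside the counts of each marker list here. The 6 fibroblast markers all fell, at a median of -1.49, from a sum of 3925 to 8396 CPM to one of 1965 to 2233 CPM. The 6 white adipocyte markers all fell too, at a median of -2.32, so falls of this size were not particular to macrophage genes. Neutrophils share Lyz2 and Cybb with macrophages, and which members the other cells here express was not examined. The part of any of these cells in the falls of the members, Lyz2, Cybb and Itgam among them, was not tested. Lymphatic endothelium bears on Lyve1 and Mrc1. Prox1, its defining transcription factor, fell from 8.97 ± 1.70 to 2.49 ± 0.219 CPM (-1.85 ± 0.20, edgeR adjusted p = 0.000372), 4 of 5 tested markers fell, and the 6 markers summed to 71.5 to 89.6 CPM on the normal and 33.3 to 54.0 CPM on the high phosphate diet, while Lyve1 was not called. Their part in the level of Lyve1 was not tested.

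The genes most alike in pattern were sought among 10301 tested genes with a mean of at least 5 CPM. Over the 6 libraries the mean of Ccr2, Lyz2 and Cybb was matched best by Cotl1 (Pearson correlation 0.9995), Ywhaz (0.999) and Rgs10 (0.998), as a description over libraries that share the difference between the diets. Cotl1 fell from 42.3 ± 10.1 to 15.6 ± 1.87 CPM (-1.44 ± 0.18) and Rgs10 from 16.8 ± 4.402 to 5.62 ± 0.528 CPM (-1.58 ± 0.20). The mean of Cd163, Mrc1 and Lyve1 was matched best by Actg1 (0.988), Zfp275 (0.985) and Atg7 (0.985), none of which was called (log2 fold changes -0.12, -0.21 and -0.077).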

How the data were processed

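Gene counts were deposited by the authors as whole numbers per Ensembl gene, not normalized. A second table deposited by the authors holds FPKM values of these 6 libraries. HISAT2 2.0.1, featureCounts 1.4.6, Trim Galore 0.4.1 and DESeq2 1.6.3 are named with the GRCm38 build, without their roles, per the submitters' processing notes. Not given in the sources used here: the annotation release, the strand setting and the FPKM tool. Total RNA was extracted with TRIzol, per the labels' protocols.

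Libraries were grouped and numbered by their titles. Between replicates of a diet the chi-square of the counts per degree of freedom was 16.5 to 52.4, so none was a copy. The test was edgeR 4.0.16 (R 4.3.3), quasi-likelihood with robust estimation, TMM and filterByExpr. The SE is the log2 fold change divided by the square root of F, which is approximate. Log2 CPM used a prior count of 2. Intervals of counting error are not given, since the replicate spread exceeds them. The alternatives used limma 3.58.1 and DESeq2 1.42.0, other scalings, filters and thresholds, a replicate block, and each library left out. FPKM values were tested as log2(FPKM + 1) and log2(FPKM + 0.1). The edgeR step was run on simulated data with few changed genes, as many up as down. That run does not bear on the scaling between the diets.

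Members, lists and tests were chosen with earlier results of these data known. Named were all members, up to 3 called genes of each list by smallest p, Ptprc, Lyz1, Prox1, Itgb2 and Csf1, the 3 genes most alike to each side, and, after their values were seen, genes that were among few of a list in their direction. The rule also took up to 3 called genes of each cell type list, which are given here as counts and sums. Some genes that the rule took are not reported here. Positions, exonic lengths and shared 50-base stretches come from GENCODE M21 (GRCm38), promoters from RefSeq (GRCm38.p6). The promoter windows of Lyz2, Ccr2 and Cybb reach 49, 233 and 250 bases into the annotated gene and are not printed.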

Additional observations from a re-analysis of the deposited data

How the results depend on the processing

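All 8 falls were called in each of 18 alternative fits and in both other thresholds, and leaving out each library gave 8 of 8 throughout. The count of members called higher (1, Cd163) was 0 with library size alone, all counts unfiltered, at least 1 CPM in 3 libraries, limma-voom, each FPKM scale, at least 2-fold and an adjusted p under 0.01, and 0 to 1 without single libraries. Library size alone moved the median of all genes from -0.016 to -0.49, and gave 7879 genes lower and 878 higher, against 4035 and 3528. Genes called higher numbered 748 on log2(FPKM + 1), 760 on log2(FPKM + 0.1) and 566 over all genes above 0 in FPKM. At least 2-fold left 2076 lower and 686 higher, an adjusted p under 0.01 left 2621 and 2043, and leaving out single libraries gave 3370 to 4075 and 2782 to 3501. The wider resident list had 5 to 8 lower and 2 to 3 higher without single libraries (5 without high phosphate replicate 3), 4 lower at 2-fold and 4 at an adjusted p under 0.01, and 1 higher with library size alone, 0 on each FPKM scale and 1 at 2-fold. Cebpb, the gene of its list called higher, gave 0 on each FPKM scale. The list around CCR2 had 2 to 5 lower without single libraries, 3 with limma-voom, 2 over all genes above 0 in FPKM and 2 at an adjusted p under 0.01. The difference between the sides of 1.63 was 1.20 without Cd163 and 2.16 without Mrc1 in the set. On log2(FPKM + 0.1) it was 1.61.

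The sign of Lyve1 turned without normal phosphate replicate 3 (0.063), high phosphate replicate 1 (0.11) and high phosphate replicate 3 (0.073), with a range of -0.40 to 0.11 over the libraries left out. Cd209f turned with library size alone (-0.23), on log2(FPKM + 1) (-0.14, and -0.14 over all genes above 0) and on log2(FPKM + 0.1) (-0.15), and Fcna without normal phosphate replicate 1 (-0.52 to 0.0049 over the libraries left out). Against the 18 other macrophage genes, Adgre1 turned on log2(FPKM + 0.1) (0.026) and without high phosphate replicate 1 (-0.29 to 0.00031 over the libraries left out), and Ccr2 without normal phosphate replicate 2 (-0.0046 to 0.30). The cause was not tested. Same-numbered libraries of the diets did not deviate together (correlations -0.021, 0.022 and 0.019), so the numbers were not taken as pairs, and with the replicate block 8 members were lower and 1 higher, as without it. Over all genes the block gave 3921 lower and 3407 higher. With 3 libraries a diet, ratios within a library could not reach an exact p under 0.10.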
